A study of Mus musculus with 13 samples.

Results

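The lysyl oxidase family is made up of 5 mouse genes, Lox, Loxl1, Loxl2, Loxl3 and Loxl4, and its messenger RNA was followed in 13 primary cultures of dermal fibroblasts. The members were taken by gene name from tables of 25655 genes, and all 5 were found in each culture at 1 TPM or more (a level scaled for transcript length, in which the genes of a library share a fixed total). The cultures were grown from the skin of newborn mice, 7 of them homozygous for the G234D change in fibrillin-1 (Fbn1 G234D/G234D) and 6 wild type (WT), and none was treated. Set 1 had 4 G234D cultures, M1 to M4, and 4 WT cultures, W1 to W4, and set 2 had 3 G234D cultures, M5 to M7, and 2 WT cultures, W5 and W6. Each culture came from 1 numbered mouse. The labels give neither the sex, the litter nor the passage, and they name 1 amino acid change with no deletion, so the level of Fbn1 cannot check the genotype. The study asked whether the mutation changes the expression of matrix genes within fibroblasts.

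The animal numbers of set 1 fall in 2 groups with both genotypes in each. The later-numbered mice gave M3, M4, W3 and W4, which have consecutive numbers. The earlier-numbered mice gave M1, M2, W1 and W2, and the number of W1 lies well below the others. The labels do not say what separates the 2 groups. M1 and M2 stood apart from the other cultures in markers of skeletal muscle and of Schwann cells and melanocytes. Summed macrophage markers did not separate them, at 171 and 227 TPM in M1 and M2 against 111 to 175 TPM in set 2. Summed TPM of 14 skeletal muscle markers were 388 to 507 in M1 and M2 and 78.2 to 189.5 in the other 11 cultures, and summed TPM of 11 Schwann cell and melanocyte markers were 130 to 133 in M1 and M2 and 24.3 to 48.4 in the others. The 12 fibroblast markers, such as Col1a1, Pdgfra and Twist2, were at 1 TPM or more in every culture and summed to 22659 to 30997 TPM. No marker of the 6 cell type lists was at 0 in all cultures. In such bulk cultures, fewer cells of a type and less RNA per cell cannot be told apart.

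Lysyl oxidases are secreted, copper-dependent enzymes that oxidise lysine residues of collagens and elastin, the first step in the covalent cross-links that give dermis its strength. Lox and Loxl1 are made as pro-enzymes that are cleaved by proteases of the BMP1 family, while Loxl2, Loxl3 and Loxl4 carry scavenger receptor cysteine-rich domains before a related catalytic domain. In mice Lox is needed for sound arteries and skin, and Loxl1 for the upkeep of elastic fibres, which form on fibrillin microfibrils.

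The members share their catalytic domain, and the stretch that binds copper is shown because it carries the histidines that hold the metal and shows how alike these 4 members are there. The lines give the coding sequence 5′ to 3′, spliced across 1 exon junction in each gene, from GENCODE M21 transcripts on mm10, with the histidine codons in capitals.
Loxl1: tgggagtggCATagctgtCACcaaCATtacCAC
Loxl2: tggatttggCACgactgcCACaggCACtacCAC
Loxl3: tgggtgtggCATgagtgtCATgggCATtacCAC
Loxl4: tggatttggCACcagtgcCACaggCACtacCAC
The 4 histidine codons stood at the same places in all 4 sequences. Of the 33 bases, Loxl2 and Loxl4 shared 31, Loxl3 shared 25 with each of the other members shown, and Loxl1 shared 22 with Loxl2 and 21 with Loxl4. The Loxl1 stretch spans chr9:58293720-58294381 on the minus strand, in exons 3 and 4. The Loxl2 stretch spans chr14:69682316-69689037 on the plus strand, in exons 10 and 11. The Loxl3 stretch spans chr6:83049995-83050125 on the plus strand, in exons 10 and 11. The Loxl4 stretch spans chr19:42598807-42599899 on the minus strand, in exons 10 and 11. These spans include the introns between the exons.

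Of the 5 genes, 3 overlap a gene on the opposite strand in that annotation. Loxl2 overlaps Gm27177 over 74219 bases and Gm37513 over 2268 bases, Loxl3 overlaps Htra2, a mitochondrial protease gene, over 1297 bases, and Lox overlaps an uncharacterised gene over 1207 bases. The libraries kept the strand, but the sources used here do not say whether counting used it, so reads of such partners may have been added to these 3 genes. Loxl1 and Loxl4 overlap no other annotated gene.

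Lox, the enzyme the family is named for, was the most abundant member. It was at 1533, 1324, 1298 and 1071 TPM in the G234D cultures M1 to M4, against 1196, 1112, 1209 and 1175 TPM in the WT cultures W1 to W4. In set 2 it was at 1137, 1251 and 1283 TPM in G234D cultures M5 to M7 and 1303 and 1179 TPM in WT cultures W5 and W6. M1 had the highest and M4 the lowest Lox of all 13 cultures, and both are G234D cultures of set 1; the genotypes overlapped in both sets. Lox averaged 1236 ± 118 TPM over all cultures (SD, n = 13) and ranked 127th of 25655 genes by mean TPM.

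Loxl1, the member most closely tied to elastic fibres, varied about as little as Lox. It was at 422, 431, 361 and 352 TPM in M1 to M4, against 397, 389, 391 and 403 TPM in W1 to W4. The set 2 values were 426, 451 and 478 TPM in M5 to M7 and 480 and 458 TPM in W5 and W6. In set 1 the G234D values lay on both sides of a narrow WT range, above it in M1 and M2 and below it in M3 and M4. Its coefficient of variation over the 13 cultures was 9.80%, beside 9.58% for Lox.

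Loxl2, an enzyme known for cross-linking collagen IV of basement membranes, split set 1 by animal number. It was at 925, 914, 596 and 501 TPM in M1 to M4, against 847, 836, 685 and 566 TPM in W1 to W4. In set 2 it was at 565, 552 and 618 TPM in M5 to M7 and 585 and 548 TPM in W5 and W6. The 4 later-numbered cultures of set 1 all lay below the 4 earlier-numbered ones, in both genotypes, and the values of set 2 lay within the range of the later ones. Loxl2 averaged 672 ± 152 TPM (SD, n = 13), with a coefficient of variation of 22.7%.

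Loxl3, which in mice is needed for the palate and the spine, was the most variable member at a coefficient of variation of 23.9%. It was at 235, 278, 187 and 163 TPM in M1 to M4, against 291, 265, 252 and 259 TPM in W1 to W4. The set 2 cultures had 157, 156 and 186 TPM in M5 to M7 and 163 and 179 TPM in W5 and W6. M1, M3 and M4 were below every WT culture of set 1, while M2 lay inside the WT range. M3 and M4 were also near the values of set 2. It averaged 213 ± 50.9 TPM over the 13 cultures (SD).

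Loxl4, a close relative of Loxl2 and Loxl3, was the least abundant member. It was at 30.4, 31.7, 32.1 and 42.8 TPM in M1 to M4, against 34.7, 33.7, 49.2 and 41.8 TPM in W1 to W4. In set 2 it was at 32.9, 38.2 and 33.4 TPM in M5 to M7 and 35.7 and 34.8 TPM in W5 and W6. M4 stood well above the other 3 G234D cultures of set 1, and W3 and W4 above the earlier-numbered WT cultures. It averaged 36.3 ± 5.39 TPM (SD, n = 13) and ranked 4239th by mean TPM, while Loxl2, Loxl1 and Loxl3 ranked 209th, 335th and 703rd.

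**Figure D1:**
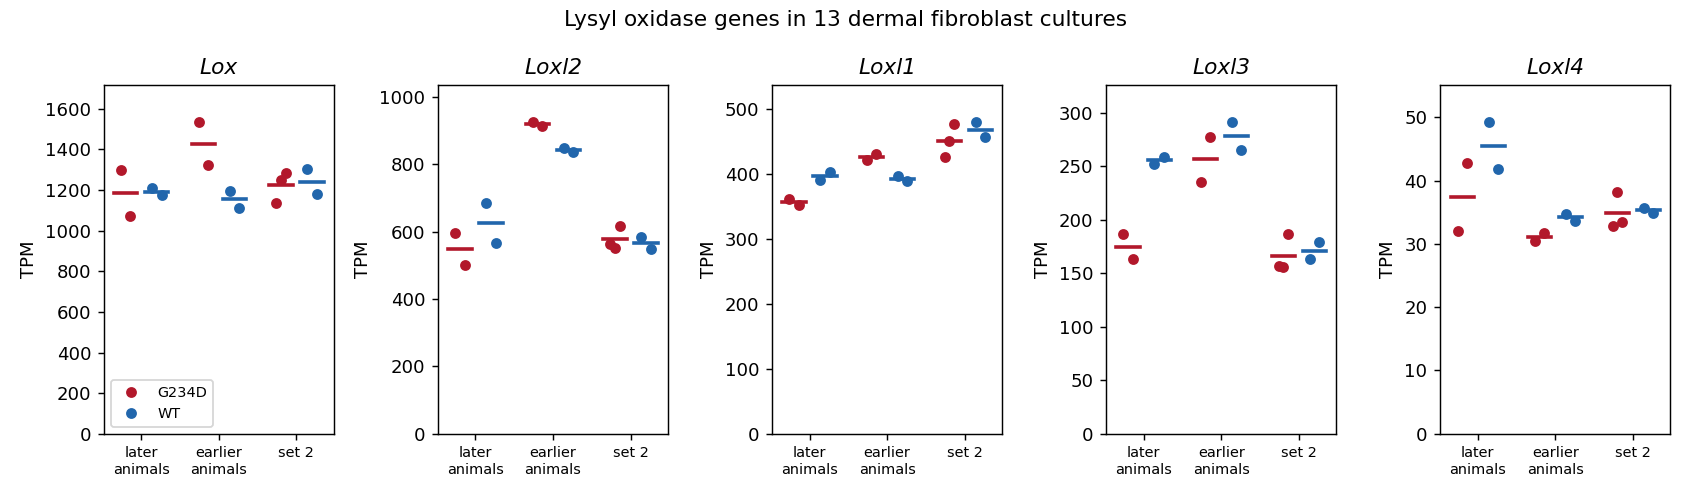
TPM of each lysyl oxidase gene, 1 panel a gene with its axis from 0, for the later-numbered and the earlier-numbered mice of set 1 and for set 2, with G234D left of WT; points are single cultures and lines are group means. Loxl2 lies at 501 to 685 TPM in the later-numbered against 836 to 925 TPM in the earlier-numbered cultures, and Loxl3 at 163 and 187 TPM in G234D against 252 and 259 TPM in WT cultures of the later-numbered mice.

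The order of the levels was the same in each of the 13 cultures: Lox above Loxl2, Loxl2 above Loxl1, Loxl1 above Loxl3, and Loxl3 above Loxl4. Per culture, Lox was on average 1.87-fold above Loxl2 (range 1.33 to 2.27), Loxl2 1.58-fold above Loxl1 (1.20 to 2.19), Loxl1 2.00-fold above Loxl3 (1.36 to 2.94) and Loxl3 5.78-fold above Loxl4 (3.81 to 8.77). Each of these 4 neighbouring steps had a two-sided exact sign-flip permutation p of 0.000244 over the 13 cultures, the smallest that 8192 sign patterns can give, and 0.000244 after Benjamini-Hochberg adjustment over the 4 steps. The order tested was taken from the mean TPM of these same 13 cultures, so this p is no independent support for it. Which neighbours were closest depended on the set. In set 1 they were Loxl1 and Loxl3 (1.65-fold), then Lox and Loxl2 (1.72-fold) and Loxl2 and Loxl1 (1.83-fold), while over all cultures they were Loxl2 and Loxl1. The ratio of Loxl2 to Loxl1 split by animal group. It was 1.65, 1.42, 1.75 and 1.41 in the later-numbered cultures M3, M4, W3 and W4, and 2.19, 2.12, 2.13 and 2.15 in the earlier-numbered cultures M1, M2, W1 and W2. In set 2 it was 1.33, 1.22, 1.29, 1.22 and 1.20 in M5, M6, M7, W5 and W6. The 3 ranges did not overlap. The genotypes overlapped within the later-numbered and within the earlier-numbered cultures. In set 2 all 3 G234D values lay above the WT values, though M6 at 1.222 barely exceeded W5 at 1.219. How many ratios of other genes separate in these ways was not counted. Of single genes, 15.5% did not overlap between the animal groups of set 1 and 23.6% between the genotypes of set 2.

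As a pool, the family held 0.213% to 0.315% of all TPM in a culture, the lowest in M4 and the highest in M1. Its summed level was 2682 ± 466 TPM in G234D and 2608 ± 133 TPM in WT cultures of set 1 (SD, n = 4 each), and 2455 ± 141 TPM in G234D and 2482 ± 119 TPM in WT cultures of set 2 (SD, n = 3 and n = 2). The G234D cultures of set 1 thus spread more widely than the WT cultures around a similar mean. Lox made up a median of 49.1% of the pool, Loxl2 24.1%, Loxl1 16.5%, Loxl3 7.54% and Loxl4 1.39%. The share of Loxl2 was 24.3% in later-numbered and 30.6% in earlier-numbered cultures of set 1 and 23.3% in set 2, and the share of Lox was 49.4%, 44.6% and 49.9% in the same order.

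**Figure D2:**
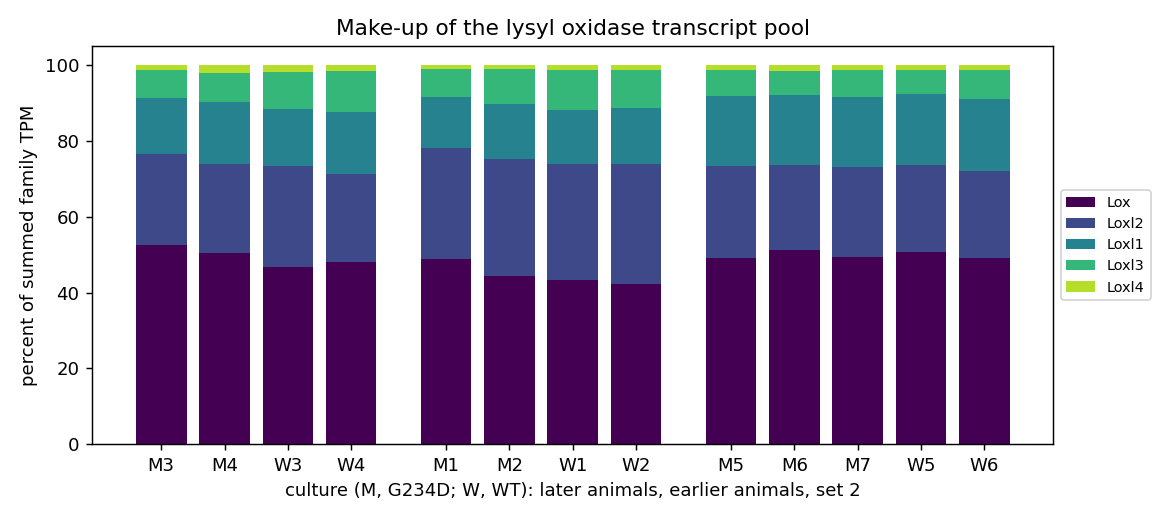
Share of each lysyl oxidase gene in the summed family TPM of each culture, in percent, as stacked bars that start at 0. Lox takes between 42.2% and 52.5% of the pool, and the Loxl2 share reaches its highest values, up to 31.7%, in the earlier-numbered cultures of set 1.

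No lysyl oxidase gene differed between the genotypes beyond the threshold. Genes were compared on the log2(TPM + 1) scale with limma, over all genes that passed a filter on low values, and a gene was called at a Benjamini-Hochberg adjusted p under 0.05; differences are those of G234D minus WT cultures. With all 13 cultures and a term for the set, 0 of the 5 members were called, beside 0 of 11942 genes tested (0%), of which 769 (6.44%) had an unadjusted p under 0.05. Loxl3 had the largest difference of the members, −0.23 (SE 0.11, 95% interval −0.47 to 0.016, unadjusted p = 0.0644 and adjusted p = 0.817 with limma). Loxl4 was at −0.14 (SE 0.098, −0.35 to 0.072, adjusted p = 0.894), and Lox at 0.083 (SE 0.071, −0.069 to 0.23, adjusted p = 0.915). Loxl1 was at −0.031 (SE 0.050, −0.14 to 0.077) and Loxl2 at −0.0079 (SE 0.15, −0.33 to 0.31), with adjusted p of 0.949 and 0.998. A p that misses the threshold does not show that the genotypes had equal levels, and the intervals are narrow for Loxl1 and wide for Loxl2 and Loxl3. That fit has no term for the animal groups of set 1. With animal group as a block the differences were the same, and the SE was 0.061 for Loxl2 and 0.084 for Loxl3. Loxl3 then had an unadjusted p of 0.0197 and an adjusted p of 0.472 with limma.

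Taken set by set, the members were again not called; these fits share their cultures with the fit over both sets. In set 1 the differences were 0.14 for Lox, −0.016 for Loxl1, −0.030 for Loxl2, −0.33 for Loxl3 and −0.21 for Loxl4, and the smallest adjusted p of these was 0.827, for Loxl3 (SE 0.15, interval −0.68 to 0.0095, unadjusted p = 0.0553). Of 11905 genes tested in set 1, 0 (0%) were called and 721 (6.06%) had an unadjusted p under 0.05; with the replicate number as a block 1 gene was called. Without M1 and M2, the cultures with the most muscle and Schwann cell markers, the Loxl3 difference was −0.61 (adjusted p = 0.0430), 1 of 32 genes called there (0.273%), while that of Lox was 0.0085. That fit sets later-numbered G234D cultures alone against WT cultures of both animal groups, so genotype and animal group cannot be told apart in it, and within the later-numbered mice alone Loxl3 was not called (adjusted p = 0.0969). In set 2 the differences were −0.020 for Lox, −0.055 for Loxl1, 0.029 for Loxl2, −0.044 for Loxl3 and −0.021 for Loxl4, with adjusted p of 0.882 to 0.972, and 1 of 12060 genes (0.00829%) was called, with 781 (6.48%) at an unadjusted p under 0.05. The interaction of set and genotype, set 2 minus set 1, was 0.29 for Loxl3 (adjusted p = 0.932) and between −0.17 and 0.19 for the other members, with 0 of 11942 genes called (0%) and 691 (5.79%) at an unadjusted p under 0.05. In neither set did the genotype groups of any member separate without overlap, which 4.15% of genes did in set 1 and 23.6% in set 2.

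The G234D mean was below the WT mean in all 3 animal groups, with set 2 as the third, for Loxl3 and Loxl4. For Loxl3 and for Loxl4, 6 of the 7 G234D cultures lay below the mean of the WT cultures of their own animal group, the exceptions being M7 for Loxl3 and M6 for Loxl4. For Loxl1 and Loxl2 it was 4 of 7 cultures each and for Lox 2 of 7. Of all genes tested, 5.48% had 6 G234D cultures below and 1.53% had all 7.

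The genotype difference of set 1 had opposite signs in the 2 animal groups for Lox, Loxl1 and Loxl2. In the later-numbered mice that of Lox was far smaller than its SE of 0.093, and the interval of Loxl2 ran from −0.48 to 0.10. The share of all genes with opposite signs was not counted. In the later-numbered mice, Loxl3 averaged 175 TPM in G234D against 256 TPM in WT cultures, a difference of −0.55 (SE 0.076, 95% interval −0.72 to −0.37, unadjusted p = 0.000114), which missed the threshold at an adjusted p of 0.0969. The other members had differences of −0.28 for Loxl4, −0.19 for Loxl2, −0.15 for Loxl1 and −0.015 for Lox there, with adjusted p of 0.508 to 0.978. In the earlier-numbered mice, Lox averaged 1428 TPM in G234D against 1154 TPM in WT cultures, a difference of 0.30 (SE 0.076, adjusted p = 0.0589). Loxl1 was at 0.12, Loxl2 at 0.13, Loxl3 at −0.12 and Loxl4 at −0.14 in those mice, and 0 of these 5 members passed the threshold. With 2 cultures a group these fits called 1 of 11890 genes (0.00841%) in the later-numbered and 976 of 12077 (8.08%) in the earlier-numbered mice.

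**Figure D3:**
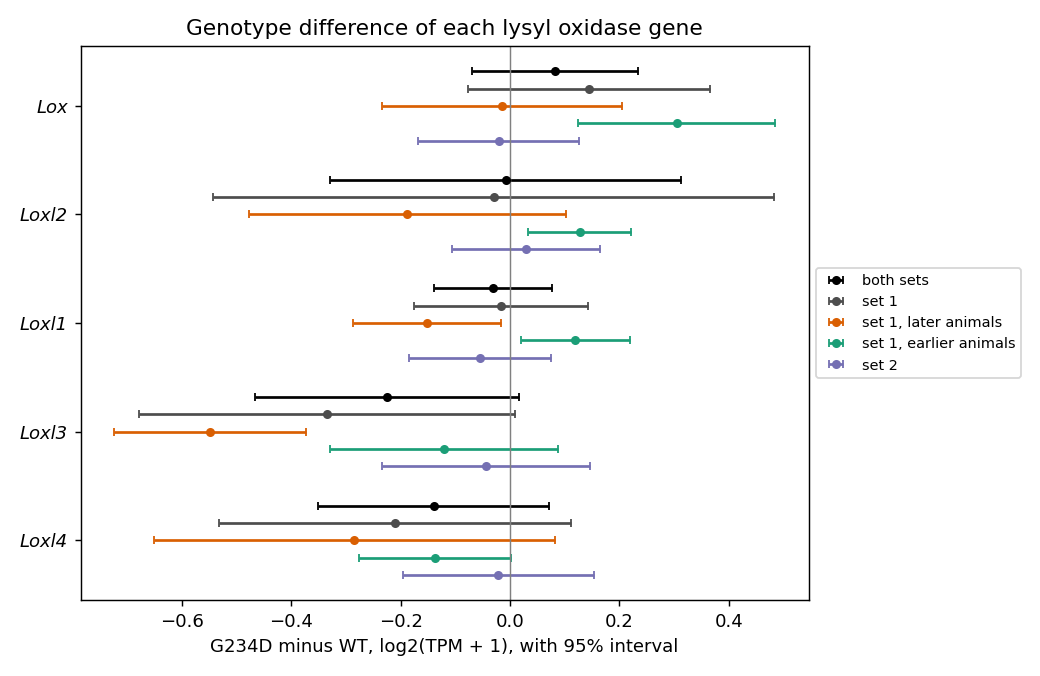
Difference in log2(TPM + 1) between G234D and WT cultures for each lysyl oxidase gene, for both sets, set 1, the later-numbered and the earlier-numbered mice of set 1, and set 2, with 95% intervals from limma; the vertical line at 0 marks equal levels. Intervals for both sets, set 1 and set 2 include 0 for all 5 genes, while Loxl3 lies at −0.55 in the later-numbered mice and Lox at 0.30 in the earlier-numbered mice, neither past the adjusted threshold.

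Without overlap of the groups, Loxl1 and Loxl3 were lower in G234D in the later-numbered mice (39.7% of genes did not overlap there), and Lox, Loxl1 and Loxl2 were higher and Loxl4 lower in the earlier-numbered mice (57.7%). Markers of other cells differed along with these values. In the earlier-numbered mice, summed TPM in G234D against WT cultures were 388 to 507 against 148 to 183 for skeletal muscle, 171 to 227 against 40.9 to 102 for macrophages and 130 to 133 against 24.3 to 26.3 for Schwann cells and melanocytes. In the later-numbered mice they were 78.2 to 130 against 138 to 189.5, 49.6 to 50.2 against 37.3 to 40.5 and 36.4 to 48.4 against 29.8 to 30.8 for the same lists. At 1 TPM or more in every culture were 8 of 14 muscle, 9 of 13 macrophage and 6 of 11 Schwann cell and melanocyte markers. Fibroblast markers summed to 22659 and 24664.5 TPM in M1 and M2, against 27258 to 27719 TPM in W1 and W2. The part of these markers in the lysyl oxidase values was not tested.

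The change of the genotype difference between the animal groups was tested as an interaction, later minus earlier. It was −0.43 for Loxl3 (SE 0.13, adjusted p = 0.113), −0.32 for Lox (SE 0.14, adjusted p = 0.249), −0.32 for Loxl2 (adjusted p = 0.263), −0.27 for Loxl1 (SE 0.064, adjusted p = 0.0580) and −0.15 for Loxl4 (adjusted p = 0.700). All 5 values were negative, as were 46.4% of genes tested, and 0 of the 5 passed the threshold, beside 334 of 11905 genes (2.81%), and 2391 (20.1%) had an unadjusted p under 0.05. The median over the members was −0.32, beside 0.018 over all genes tested. Leaving out a culture leaves 1 of the 4 arms of this fit with 1 culture, which is then assumed to vary like the others. Without M3, with M4 alone in its arm, the values of Loxl1, Lox and Loxl3 passed the threshold at adjusted p of 0.0438, 0.0491 and 0.0498, that of Loxl4 turned to 0.054, and 690 of 11837 genes were called (5.83%).

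Loxl2 was lower in the later-numbered mice of set 1, and it was the 1 member called between these groups. It averaged 587 ± 76.3 TPM in the later-numbered and 881 ± 45.3 TPM in the earlier-numbered cultures (SD, n = 4 each). The difference, with genotype as a covariate, was −0.59 (SE 0.088, 95% interval −0.79 to −0.39, adjusted p = 0.0143 with limma), or 0.664-fold, and 4 of 4 later-numbered cultures lay below every earlier-numbered one, a separation that 9.77% of genes showed in that direction and 15.5% in either. In this comparison 518 of 11905 genes were called lower (4.35%) and 332 higher (2.79%), and 3173 (26.7%) had an unadjusted p under 0.05. The call was lost without culture M1 (−0.56, adjusted p = 0.0506) and without M2 (−0.56, adjusted p = 0.0715). Within G234D cultures the Loxl2 difference was −0.75 (adjusted p = 0.00239) and within WT cultures −0.43 (adjusted p = 0.0858), both fits chosen after the data were seen. Loxl3 (−0.55, adjusted p = 0.0140) and Loxl1 (−0.26, adjusted p = 0.0224) were also lower within G234D cultures, where 16.7% of genes were called, while within WT cultures, where 1.59% were, they were at −0.12 (adjusted p = 0.355) and 0.014 (adjusted p = 0.926). Skeletal muscle markers summed to 78.2 to 130 TPM in M3 and M4 and 388 to 507 TPM in M1 and M2, and their part was not tested.

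Loxl3 and Loxl4 came closer to the threshold between the animal groups than Lox and Loxl1. Loxl3 averaged 215 ± 47.7 TPM in the later-numbered and 267 ± 23.8 TPM in the earlier-numbered cultures, a difference of −0.33 (SE 0.099, adjusted p = 0.0762). Loxl4 was the member with a positive value, at 41.5 ± 7.06 TPM in the later-numbered and 32.6 ± 1.96 TPM in the earlier-numbered cultures, a difference of 0.32 (SE 0.090, adjusted p = 0.0612). Lox was at −0.11 (adjusted p = 0.453) and Loxl1 at −0.12 (adjusted p = 0.205). Over the 5 members the median difference was −0.12, beside −0.022 over all genes tested. Without W2 the Loxl3 difference was −0.40 (adjusted p = 0.0461), and without M3 the Loxl4 difference was 0.42 (adjusted p = 0.0243). Skeletal muscle markers summed to 78.2 to 189.5 TPM in the later-numbered and 148 to 507 TPM in the earlier-numbered cultures, and macrophage markers to 37.3 to 50.2 and 40.9 to 227 TPM. Their part in these differences was not tested.

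The members were set against each other after the means of the 3 animal groups were taken from each, to see whether cultures high in one were high in another. None of 10 pairs passed an exact permutation test within animal groups after Benjamini-Hochberg adjustment over the pairs, and 1 pair had an unadjusted p under 0.05. For Lox and Loxl2, Pearson's r was 0.606 (two-sided exact permutation p = 0.0211, adjusted p = 0.211) and Spearman's rho 0.769 (p = 0.00985, adjusted p = 0.0985) over 13 cultures, and r was 0.647 without M1 and W2, the cultures farthest from the median of Lox. Within the later-numbered, the earlier-numbered and the set 2 cultures r was 0.672, 0.929 and 0.592 over 4, 4 and 5 cultures. Loxl1 and Loxl3 had an r of 0.615 (adjusted p = 0.230), and Loxl4 and Lox had the most negative r, −0.382.

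The genes whose pattern was most like that of each member, by Pearson's r of the same deviations over 13 cultures among 9738 genes, are a description with no test. For Lox they were Tfpi, an inhibitor of blood coagulation (r = 0.941), Zfp91, a zinc finger protein (0.915), and Hook3, a microtubule-binding protein (0.914). For Loxl1 they were Chst12, a chondroitin sulfotransferase (0.912), Pls3, an actin-bundling protein (0.872), and Plekho2 (0.870). For Loxl2 they were Pla1a, a phospholipase (0.917), Tns1, a focal adhesion protein (0.904), and Kank1, which binds talin (0.900). For Loxl3 they were Nxn, a thioredoxin-like protein (0.937), Rflnb, a filamin-binding protein (0.925), and Pdlim7, an actin-associated protein (0.898).

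For Loxl4 the closest genes included Lss, which encodes lanosterol synthase (0.964), and Nsdhl, a sterol dehydrogenase (0.931). Lss was at 47.1, 49.0, 45.3 and 63.0 TPM in M1 to M4, against 53.5, 52.9, 69.7 and 61.8 TPM in W1 to W4. In set 2 it was at 52.1, 63.9 and 53.2 TPM in M5 to M7 and 53.1 and 52.7 TPM in W5 and W6. The cultures with the highest Loxl4 in each genotype and set, M4, W3, M6 and W5, also had the highest Lss there. Within the later-numbered, the earlier-numbered and the set 2 cultures, r between Loxl4 and Lss was 0.992, 0.991 and 0.859. Since Lss was picked for its r with Loxl4 over these same cultures, these matches are no separate support.

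The genes around the enzymes were read from 6 lists with 72 genes, of which 66 were tested. Over both sets 0 of the 66 were called between G234D and WT, beside 0% of all genes tested, while 4 were higher and 2 lower at an unadjusted p under 0.05 with limma, and their median difference was 0.014, beside 0.011. Of 6 tested proteases and enhancers that process the pro-enzymes or procollagens, 2 were positive, among them Pcolce, which speeds BMP1, at 0.040, and 4 negative, among them Adamts2, a procollagen protease, at −0.15. Of 12 tested scaffolds that bind the enzymes, 5 were positive, among them fibronectin (Fn1) at 0.20 (SE 0.081) and Fbn1 itself at 0.15 (SE 0.058), and 7 were negative, among them fibulin-5 (Fbln5) at −0.23; the adjusted p of Fn1 and Fbn1 was 0.742. Of 9 tested substrates 5 were positive and 4 negative, with Col4a2 at 0.11, Col1a1 at −0.087 and Col5a1 at −0.061 (adjusted p of 0.910 to 0.937).

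Within the earlier-numbered mice, with 2 cultures a group, Adamts2 (−0.48, adjusted p = 0.00368), Col1a1 (−0.33, adjusted p = 0.0228) and the collagen chaperone gene Serpinh1 (−0.27, adjusted p = 0.0298) were lower and Col4a2 (0.35, adjusted p = 0.0245) and Fn1 (0.24, adjusted p = 0.0332) higher in G234D, beside 8.08% of genes called; the differences in markers of other cells given above stood beside these values, and their part was not tested.

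Lysyl oxidases need copper, and of 12 tested genes of copper supply 11 were positive and 1 negative, with a median of 0.043 and no call. Of all 11942 genes tested, 6756 were positive. Mt2, a metallothionein that binds zinc and copper, averaged 237 TPM in G234D and 178 TPM in WT cultures, a difference of 0.41 (SE 0.10, unadjusted p = 0.00131, adjusted p = 0.696). Mt1 was at 0.17, and Atp7a, the pump that loads copper into secreted enzymes, at 0.12 (adjusted p = 0.742 and 0.882). Of 9 tested genes of lysine hydroxylation and collagen folding 4 were positive, and of 18 upstream signals and regulators 8 were, with Tgfb1 at −0.095 and Srf at −0.13. Taken by set, 10 of the 12 copper supply genes were positive in set 1, with a median of 0.088. In set 2, 8 were positive and 4 negative, with a median of 0.018, below the 0.030 of all genes tested there. The interaction of set and genotype was negative for 9 of the 12, with no call.

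Between the animal groups, 2 of the 66 related genes were called higher and 8 lower in the later-numbered cultures (15.2%, beside 7.14% of all genes tested). Both chains of collagen IV, the network-forming collagen of basement membranes, were lower together with Loxl2. Col4a1 was at 593, 596, 716 and 684 TPM in M3, M4, W3 and W4, against 1204, 1139, 864 and 965 TPM in M1, M2, W1 and W2, a difference of −0.68 (SE 0.11, adjusted p = 0.0220). Col4a2 averaged 506 TPM in later-numbered and 766 TPM in earlier-numbered cultures (−0.59, adjusted p = 0.0274). The later-numbered cultures were all below the earlier-numbered ones for both genes. Tgfb2, a TGF-beta ligand, was at 9.01, 9.27, 12.9 and 11.6 TPM in M3, M4, W3 and W4, against 21.9, 22.4, 20.2 and 21.2 TPM in M1, M2, W1 and W2, again without overlap (−0.95, SE 0.095, adjusted p = 0.00511).

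Of the 6 tested proteases and enhancers, the enhancer Pcolce2 (−0.89, adjusted p = 0.0217) and the procollagen protease Adamts14 (−0.66, adjusted p = 0.0217) were lower and Adamts2 was higher (0.65, adjusted p = 0.0218). The ligand Tgfb3 (−0.30, adjusted p = 0.0274), the collagen chaperone Fkbp10 (−0.16, adjusted p = 0.0448) and the coactivator Yap1 (−0.20, adjusted p = 0.0356, named after its value was seen) were lower, and Epas1, a hypoxia-response factor, was higher (0.81, adjusted p = 0.0274). Fbn1 was at 0.0030 (adjusted p = 0.987). Without M2 the calls of all these genes but Tgfb2 were lost, at adjusted p of 0.0893 to 0.167, and likewise without M1, at 0.0550 to 0.108; that of Tgfb2 held in each of the 8 fits that left out 1 culture, at adjusted p of 0.00877 to 0.0314. Without M3 those of Adamts2, Col4a2, Fkbp10 and Yap1 were lost, without M4 those of Col4a2, Fkbp10, Tgfb3, Epas1 and Yap1, and without W1 those of Fkbp10, Tgfb3, Epas1 and Yap1. Fkbp10 was not called without any 1 of the 8 cultures, and Yap1 and Tgfb3 were lost without W3 and Yap1 without W4. The markers of other cells that differ between the animal groups, given above, differ along with these genes too, and their part was not tested. Among the scaffolds Fbn2 came nearest to the threshold, at 0.69 (adjusted p = 0.0540).

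**Figure D4:**
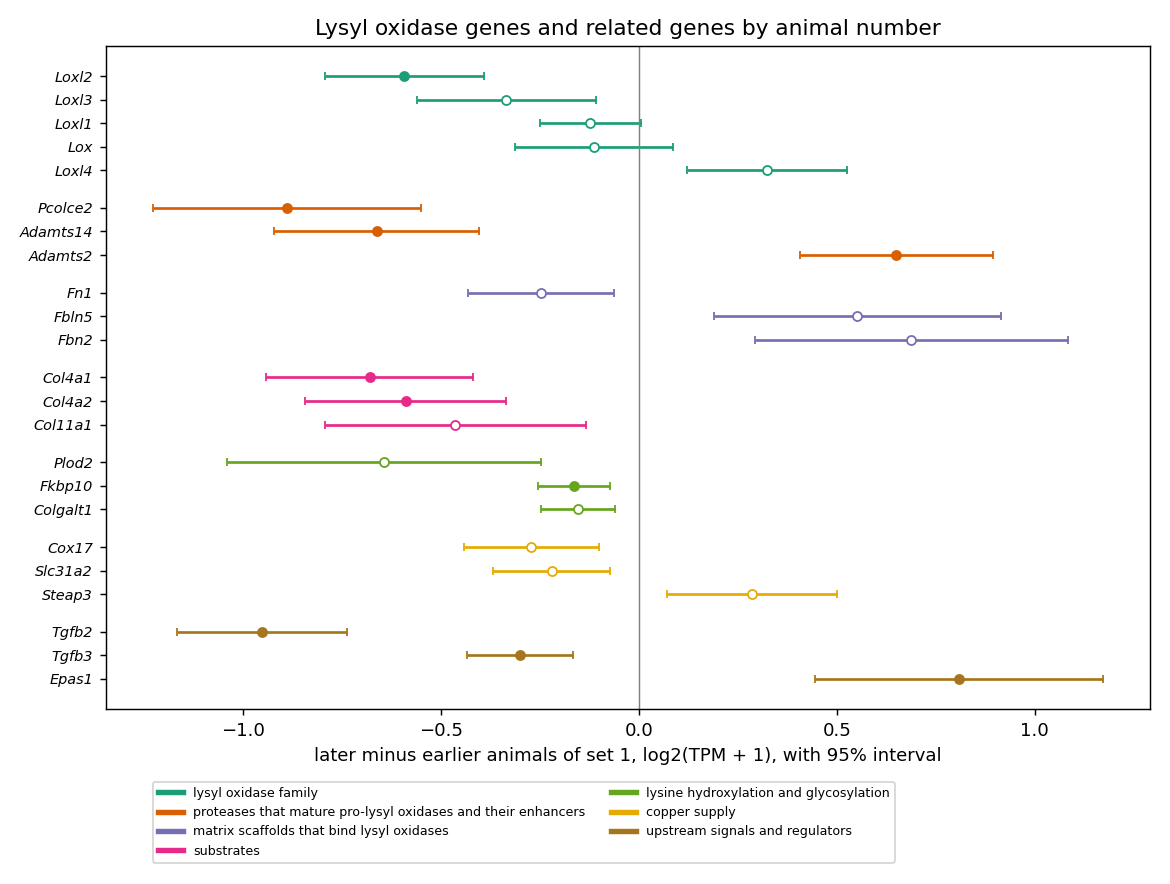
Difference in log2(TPM + 1) between later-numbered and earlier-numbered mice of set 1, with genotype as a covariate, for the lysyl oxidase genes and the related genes with the smallest p of each list, with 95% intervals from limma; filled points have an adjusted p under 0.05. Loxl2 at −0.59 is the filled point among the lysyl oxidases, and Col4a1 at −0.68, Col4a2 at −0.59 and Tgfb2 at −0.95 are filled on the same side.

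The interaction of animal group and genotype passed the threshold for 8 of the 66 related genes (12.1%, beside 2.81% of all genes tested), 5 negative and 3 positive, named here after their values were seen. Of 7 tested Schwann cell and melanocyte markers 5 were called negative in the same fit (median −1.75), and of 11 tested muscle markers 2 were called negative and 10 were negative at an unadjusted p under 0.05 (median −1.89); the part of these cells in the related genes was not tested. Col4a1 (−0.59, adjusted p = 0.0121) and Col4a2 (−0.56, adjusted p = 0.0207) had the sign of Loxl2 and the other lysyl oxidases. So did Ccn2, a secreted matrix-associated protein (−0.85, adjusted p = 0.0134), the protease Tll1 of the BMP1 family (−0.94, adjusted p = 0.00870) and thrombospondin-1 (Thbs1, −0.47, adjusted p = 0.0436). The fibrillar collagen gene Col3a1 (0.95, adjusted p = 0.0242), fibrillin-2 (Fbn2, 0.84, adjusted p = 0.0151) and fibromodulin (Fmod, 1.40, adjusted p = 0.0435), which binds collagen, had the opposite sign. Ccn2 was at 481 and 476 TPM in M3 and M4 against 633 and 528 TPM in W3 and W4, and at 828 and 751 TPM in M1 and M2 against 508 and 550 TPM in W1 and W2. Each of these 8 calls was lost without M1, at adjusted p of 0.0518 to 0.143. Without W1 those of Fmod, Thbs1, Col3a1, Col4a2 and Ccn2 were lost, and without W2 those of Fmod, Thbs1 and Fbn2. Without W4 those of Thbs1, Col3a1 and Col4a2 were lost, without W3 those of Thbs1 and Col4a2, without M4 those of Thbs1 and Fmod, without M2 that of Thbs1 and without M3 that of Fmod.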

How the data were processed

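The authors deposited 1 table per culture with gene-level TPM, and each summed to 1000000. Per the labels' protocols, RNA was extracted with an RNeasy kit, its quality was read on a bioanalyzer, and the NEBNext Ultra II Directional kit gave strand-specific libraries, and the submitters' processing notes name mm10. Which aligner, counter and annotation were used is not given in the sources used here. TPM keep no read totals, so the depth is unknown and no counting interval is given; the median SE of a log2 difference, 0.062 with all cultures, 0.080 within set 1 and 0.087 within set 2, sets the precision. Cultures had 11741 to 12042 genes at 1 TPM or more.

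Values were tested as log2(TPM + 1), which understates changes of low genes, with limma 3.58.1 in R 4.3.3 (mean-variance trend, robust empirical Bayes) over genes at 1 TPM or more in at least 6 of the 13 cultures (for set 1 alone at least 4, for set 2 alone at least 2). P-values were adjusted by Benjamini-Hochberg over all genes tested. The fits were also run on simulated data with known changes and independent errors, and the outcome is not reported here. For the genotype fits these data held no shift between animal groups. Since each culture is 1 mouse, p-values measure the spread between mice and cultures together. Fits within animal groups or genotypes have 2 cultures a group. Deviations of same-numbered cultures from their set and genotype means correlated at 0.214 to 0.314 in set 1 and at −0.155 and 0.014 in set 2. Same-numbered cultures of set 1 also share an animal group, so a pairing by number cannot be told apart from the animal group.

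The members and lists were chosen with earlier results of these data known. Named were the 5 members, Fbn1, in each related list the 3 genes with the smallest p over both sets and the 3 between animal groups, and the 3 genes most like each member by r with a mean of 5 TPM or more; exceptions are stated, and 1 gene named by this rule is not reported here. Coordinates and coding sequence came from GENCODE M21. Alternatives were a pseudocount of 0.1, filters, scalings, blocks, no robust step and leaving out cultures.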

Additional observations from a re-analysis of the deposited data

Results flagged for a closer look

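Loxl4 in culture M4 was at 42.8 TPM, far from the other 3 G234D cultures of set 1 at 30.4 to 32.1 TPM; its gap to the nearest was 0.862 of the group's range, above Dixon's critical value of 0.829 for 4 samples. Chance marks about 1 in 20 groups in this way. The test was run on each member and on the family total in both genotypes of set 1, and no other value passed. The tested group mixes both animal groups, so the test cannot tell an aberrant culture from a shift between them. Of the other later-numbered cultures, W3 and W4 were at 49.2 and 41.8 TPM and M3 was at 32.1 TPM. The genotype difference of 8 related genes changed between the later-numbered and earlier-numbered mice of set 1 by the test of the interaction (limma, adjusted p under 0.05). The change in the log2 difference was 1.40 for Fmod, 0.95 for Col3a1 and 0.84 for Fbn2, and −0.94 for Tll1, −0.85 for Ccn2, −0.59 for Col4a1, −0.56 for Col4a2 and −0.47 for Thbs1. G234D cultures of the earlier-numbered mice also had the highest summed markers of skeletal muscle, 388 to 507 TPM, and their part in these values was not tested.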

How the results depend on the processing

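Over both sets no member passed the threshold under any scaling, filter, pseudocount, block or left-out culture tried. Without M1 and M2 the sign turned for Lox (−0.0052), Adamts14 (−0.024), Adamts2 (0.10) and Col4a2 (−0.11), and in set 1 Loxl3 was called at −0.61, with 32 genes called, though set 1 then holds later-numbered G234D cultures alone against WT cultures of both animal groups. Within earlier-numbered mice 976 genes were called and the sign differed from that over both sets for Loxl1 (0.12), Loxl2 (0.13), Pcolce (−0.035) and Plod1 (−0.056); within later-numbered mice 1 gene was called and it differed for Lox (−0.015), Adamts14 (−0.062), Col4a2 (−0.21) and Serpinh1 (0.026). In set 1 Loxl1 was at 0.00044 with quantile normalization, and in set 2 Loxl2 at −0.0058 with median-of-ratios scaling. With the replicate block set 1 had 1 call, set 2 had 21, and Loxl2 (−0.020) and Loxl4 (0.0065) changed sign in set 2; over both sets the block gave 0.078, −0.043, −0.027, −0.27 and −0.14 for Lox to Loxl4 and changed no other call. Blocking by animal group gave 1 call in set 1, where Loxl3 was at −0.33 (SE 0.099) and Loxl4 at −0.21 (SE 0.090). Their unadjusted p with limma was 0.00900 and 0.0428, and their adjusted p 0.347 and 0.497. Without a filter set 2 had 0 calls, as at 10 TPM, the animal groups 269 and their interaction 139. Without the filter Col4a2, Fkbp10, Tgfb3, Epas1 and Yap1 lost their animal group calls (adjusted p of 0.0508 to 0.0629). Fmod, Thbs1, Col3a1 and Col4a2 lost their interaction calls there (0.0513 to 0.0895). Both scalings lost the animal group calls of Fkbp10 and Yap1. Quantile normalization lost the interaction call of Col3a1, and no robust step that of Thbs1. Without the robust step Fbn2, Fbln5 and Plod2 were called between animal groups, as was Fbn2 with median-of-ratios scaling. The cause of these changes was not tested.

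Later minus earlier, 2027 genes were called within G234D, where Loxl1 (−0.26) and Loxl3 (−0.55) passed and Fbn1 was at −0.010, and 190 within WT, where Loxl2 (−0.43) did not pass and Lox (0.048) and Loxl1 (0.014) turned; both were added after the data were seen. The order of members in set 2 had mean log2 ratios of 1.10, 0.32, 1.45 and 2.26 at exact permutation p = 0.0625, the smallest that 5 cultures allow. With deviations from set and genotype means r was 0.593 for Lox and Loxl3, −0.382 for Loxl1 and Loxl4, −0.709 for Loxl2 and Loxl4 and −0.605 for Loxl3 and Loxl4, against −0.041, 0.17, 0.033 and 0.39. Such deviations keep the shift between the animal groups of set 1, which deviations from animal group means remove. No pair passed the exact permutation test with them, at a lowest adjusted p of 0.0752 for r and 0.0680 for rho. 

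Leaving out each culture gave these ranges. Calls ran from 0 to 2 in set 1, 0 to 14 in set 2, 0 to 1 for the set interaction, 36 to 855 between animal groups and 46 to 690 for their interaction. Loxl2 ran from −0.081 to 0.092 over both sets, −0.16 to 0.14 in set 1, −0.020 to 0.076 in set 2, −0.11 to 0.19 for the set interaction and −0.68 to −0.51 between animal groups. Loxl1 ran from −0.064 to 0.033 in set 1, −0.088 to 0.0097 for the set interaction and −0.29 to −0.25 for the animal group interaction. Lox ran from −0.092 to 0.051 in set 2 and −0.46 to −0.18 for the animal group interaction. Loxl3 ran from −0.13 to 0.024 in set 2, −0.40 to −0.24 between animal groups and −0.55 to −0.31 for their interaction. Loxl4 ran from −0.088 to 0.018 in set 2, 0.26 to 0.42 between animal groups and −0.35 to 0.054 for their interaction, and Fbn1 from −0.056 to 0.067 between animal groups.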
